A study of Mus musculus with 6 samples.

Results

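Of the 5427 Gli3 peaks in the developing mandibular prominence (MNP), 878 lay at a promoter, overlapped no Hand2 peak of the MNP and overlapped no Gli3 peak of the whole face. They are called MNP-only promoter peaks without Hand2. A promoter peak has its midpoint within 1 kb of the 5′ end of a protein-coding gene (21951 genes of the mm10 annotation), and an overlap is 1 shared bp or more. The peaks made up 16.2% of all Gli3 MNP peaks and 28.6% of the 3067 Gli3 MNP promoter peaks. Their nearest genes numbered 856, and 1002 genes had such a peak within 1 kb of their start. All 3 conditions of the choice come from the peak positions, so presence at promoters and absence from the other lists are not results here.

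The lists come from ChIP-seq with a FLAG antibody on CD1 mouse embryos at E11.5, in 3 groups of 2 replicates. Tagged Gli3 was taken down from the whole face and from dissected MNPs, and tagged Hand2 from dissected MNPs. By the study, the whole face held the frontonasal, maxillary and mandibular prominences, so it included the MNP. The name MNP-only therefore means absence from the whole face list. It does not mean that binding was confined to the mandible. By the labels the genotypes were Gli3 3XFlagbio for both Gli3 groups and Hand2 3XFlagbio for the Hand2 group, the latter allele being listed as 3xFlag in the study's reagents, that is, a tag at the endogenous locus, and the labels list no treatment. Tissue was pooled from several embryos for each experiment and a mock ChIP was made on wild-type embryos, so a peak stands for a pool of cell types and not for a single animal. The sample labels state E11.5, while the design text of the series states E10.5. The deposited lists hold 5752 peaks for Gli3 in the whole face and 59583 for Hand2 in the MNP, each merged from both replicates, with positions and no height, score or read count. The depth behind a peak is therefore unknown, and a peak missing from a list may have fallen below the threshold of that list.

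Gli3 is a zinc finger transcription factor at the end of the Hedgehog pathway. Its full-length form activates target genes, and its processed form represses them in cells that receive no Hedgehog signal. Its best known binding sequence is the canonical Gli-binding motif (cGBM), GACCACCC. A divergent form of lower affinity (dGBM) is GACCTCCC, with the core CCTCC, which is part of it. Hand2 is a basic helix-loop-helix factor of the distal mandibular mesenchyme that binds E-boxes, CANNTG, and among them CAGATG. Most mammalian promoters of broadly expressed genes lie in CpG islands, stretches rich in G, C and the dinucleotide CG.

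Among the 8-mers that passed the test, the cGBM had the largest difference in share between these peaks and the Gli3 promoter peaks that the whole face also had, and it was the rarer in the former. In all, 11 of the 878 held a GACCACCC in their middle 200 bp. All 11 sites are shown, since they are the exceptions, and the capitals mark the cGBM, read 5′ to 3′ on the strand that carries it (GRCm38/mm10).
Edc3, chr9:57708741-57708770, minus strand: caaaccgagctGACCACCCggaagcgccag
Zkscan1, chr5:138085276-138085305, plus strand: gtggaccgtgtGACCACCCggggggacttg
Kctd17, chr15:78428775-78428804, plus strand: acggtgttcctGACCACCCgccagacgctg
Zfp672, chr11:58330021-58330050, plus strand: actggtatccaGACCACCCatgaacgaagc
Ergic1, chr17:26561664-26561693, plus strand: cagccggcgacGACCACCCcccaccccccg
Pomp, chr5:147860795-147860824, minus strand: atcggagccagGACCACCCgagagagtgca
Clptm1, chr7:19665474-19665503, minus strand: aacaaagtaatGACCACCCcttaggtcgaa
Dkk3, chr7:112158441-112158470, plus strand: aaagactgcagGACCACCCctcttgcccgt
Plaur, chr7:24463136-24463165, minus strand: tctagctcccaGACCACCCaggccccgcca
Kdm5b, chr1:134560843-134560872, minus strand: gactccccagcGACCACCCcggcggctgcc
Memo1, chr17:74294653-74294682, plus strand: ctgcccagctcGACCACCCcggcggcctgg

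Each site lay within 90 bp of the midpoint of its peak, and such closeness is set by the choice of the middle 200 bp. The most central sites were those at Kdm5b (-11 bp), Memo1 (-14 bp) and Clptm1 (17 bp). Their peaks were 239 bp (*Dkk3*) to 1597 bp (*Kdm5b*) wide, and the nearest Hand2 peak lay 301 bp (*Dkk3*) to 55850 bp (*Edc3*) away. *Kdm5b* encodes a histone demethylase, *Pomp* a proteasome assembly factor, *Edc3* a protein of mRNA decapping and *Dkk3* a secreted protein of the Dickkopf family.

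The middle 200 bp was CpG-island-like, with a GC content of at least 50% and an observed over expected CpG ratio of at least 0.6, in 785 of the 878 peaks (89.4%). The next 6 windows, each 120 bases around a peak's midpoint and on the strand of its gene, are examples. They come from genes of the lists described further on and lie outside every annotated exon, as do others not shown. Capitals mark CG.
Rpl19, chr11:98027122-98027241, plus strand: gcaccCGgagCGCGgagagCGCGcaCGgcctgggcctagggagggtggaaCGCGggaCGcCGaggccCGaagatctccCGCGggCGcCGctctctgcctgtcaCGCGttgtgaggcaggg
Rpl5, chr5:107900736-107900855, plus strand: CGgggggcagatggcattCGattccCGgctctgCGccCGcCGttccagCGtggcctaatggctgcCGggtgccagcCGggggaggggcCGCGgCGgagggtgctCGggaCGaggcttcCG
U2af1, chr17:31658345-31658464, minus strand: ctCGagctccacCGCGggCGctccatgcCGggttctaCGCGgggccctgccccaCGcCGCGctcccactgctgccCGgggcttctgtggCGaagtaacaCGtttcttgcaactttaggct
Rbbp7, chrX:162760788-162760907, plus strand: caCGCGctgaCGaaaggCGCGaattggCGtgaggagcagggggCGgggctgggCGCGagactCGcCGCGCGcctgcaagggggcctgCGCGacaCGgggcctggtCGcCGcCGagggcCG
Pitx1, chr13:55835784-55835903, minus strand: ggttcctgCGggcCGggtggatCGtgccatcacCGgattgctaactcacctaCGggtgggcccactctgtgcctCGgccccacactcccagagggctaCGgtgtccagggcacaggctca
Mef2a, chr7:67372973-67373092, minus strand: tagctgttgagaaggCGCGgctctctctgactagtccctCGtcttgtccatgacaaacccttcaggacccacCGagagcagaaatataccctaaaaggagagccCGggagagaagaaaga

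The windows at *Rpl19* and *Rpl5*, genes of the large ribosomal subunit, held 17 and 15 CG dinucleotides. That at *Rbbp7*, a histone-binding subunit of Polycomb and deacetylase complexes, held 20 at a GC content of 77.5%. The window at *U2af1*, a factor of 3′ splice site recognition, held 13. The windows at *Pitx1*, a homeobox gene of the mandibular mesenchyme and hindlimb, and *Mef2a*, a MADS-box gene of muscle, held fewer, 7 and 5. Among the windows not shown, those at the ribosomal genes *Rpl4* and *Rpl22* held 4 and 11, and that at *Eif4b* 17. The 6 examples are therefore no contrast between kinds of gene. Read against the sites above, no window of the 6 shown contained a cGBM.

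The peaks sat downstream of gene starts. The midpoint lay downstream in 763 of 878 (86.9%), at a median of 254 bp (quartiles 144 and 393 bp), and in 483 (55.0%) it fell between 100 and 400 bp downstream. In the 1549 MNP-only promoter peaks with Hand2 the share downstream was 87.0% and the median 287 bp. In the 237 promoter peaks without Hand2 that were shared with the whole face the share was 70.9% and the median 140 bp. The side of the gene start was not used in the choice, and its share did not pass the test against the peaks with Hand2 (two-sided Fisher's exact test, adjusted exact p = 1 over 4 tests), while it was 16.0 percentage points higher than in the peaks shared with the whole face (adjusted exact p = 6.79e-08). The test of this side was added after the data were seen. A gene start lay inside 475 of the peaks (54.1%), compared with 1023 of the 1549 with Hand2 and 67.1% of those shared with the whole face. This last measure depends on peak width and is given without a test.

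**Figure D1:**
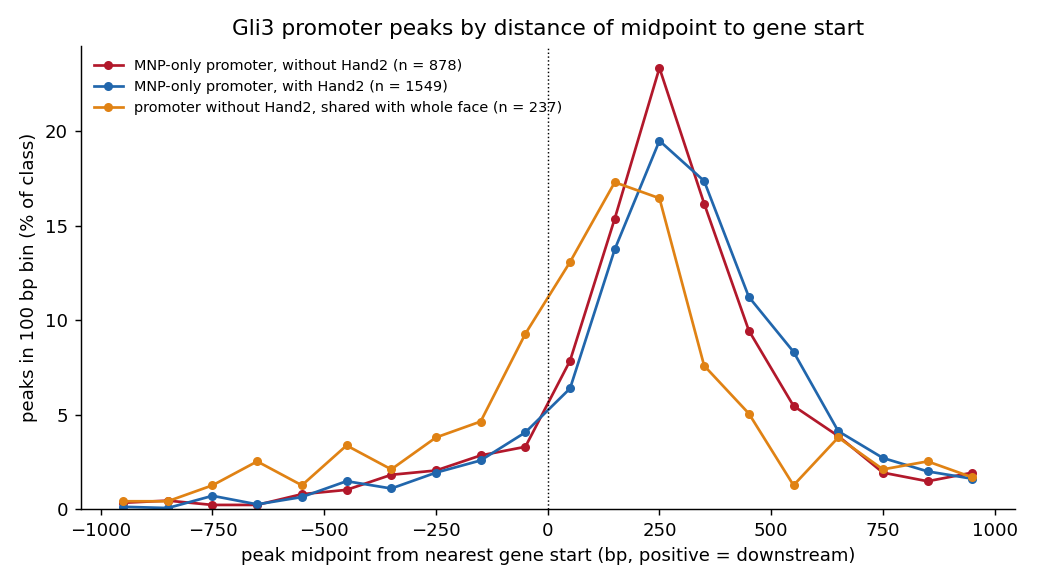
Share of each class of promoter peak (y axis, percent) by distance of the peak midpoint to the nearest gene start (x axis, bp, bins of 100 bp, positive values downstream). The MNP-only promoter peaks without Hand2 have their highest bin at 200 to 300 bp downstream (23.3%), like those with Hand2 (19.5%), and the peaks shared with the whole face have theirs at 100 to 200 bp (17.3%).

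The midpoint fell in an intron in 365 peaks (41.6%), in a UTR in 224 (25.5%), in a coding exon in 186 (21.2%), in a non-coding exon in 34 (3.87%) and outside protein-coding genes in 69 (7.86%). In 149 peaks (17.0%) 2 or more gene starts lay within 1 kb, as at paired genes that run in opposite directions, and the nearest start then decides the gene named. The 15 X-linked genes with such a peak were 1.58% of the 948 on that chromosome, compared with 4.56% of all protein-coding genes. The difference was not tested.

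In base composition most of the peaks resembled CpG islands. Their median GC content was 66.8% (quartiles 61.8 and 71.0%), compared with 66.4% in those with Hand2, 64.0% in those shared with the whole face and 54.0% in the 402 MNP-only distal peaks without Hand2. By the same limits over the whole peak, 816 of the 878 (92.9%) were CpG-island-like. The share with Hand2 was 93.0%, a difference of -0.0247 percentage points (Fisher's exact test, adjusted exact p = 1). The share in the peaks common with the whole face was 78.9%, lower by 14.0 percentage points (adjusted exact p = 1.45e-08). Among peaks at or above the median width of all Gli3 MNP peaks that difference was 5.95 points (unadjusted exact p = 0.0177). Peaks were counted as independent in these tests, which compare regions of merged lists and not animals.

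The peaks were of middle width. The median was 607 bp (quartiles 450 and 807 bp), compared with 763 bp with Hand2, 589 bp in the peaks shared with the whole face and 412 bp in the distal peaks. Leaving out chromosome M, widths ran from 164 bp at *Hey1*, a Notch effector gene, to 1935 bp at *Ajuba*, which encodes a LIM-domain protein of cell junctions. *Chtf8* (1931 bp), the Fgf receptor gene *Fgfr2* (1904 bp), *Cdk13* (1851 bp) and the histone methyltransferase gene *Kmt2d* (1750 bp) had the next widest. At the narrow end stood *Urgcp* (168 bp), 1 of the peaks at *Mob1b* (173 bp), *Gm11168* (178 bp) and *Lpar2* (186 bp).

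The entry names show how each replicate contributed. Every merged peak names at least 1 peak from each Gli3 MNP replicate, and the highest peak number was 19518 in replicate 1 and 6394 in replicate 2, so at least that many peaks had been called in each. Several sub-peaks were named in 487 of the 878 (55.5%) from replicate 1 and in 125 (14.2%) from replicate 2. The replicates stood in the same order in every class, and the class with Hand2 had the highest share in both (66.5 and 26.1%). Values without a replicate cannot be had from a merged list.

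**Figure D2:**
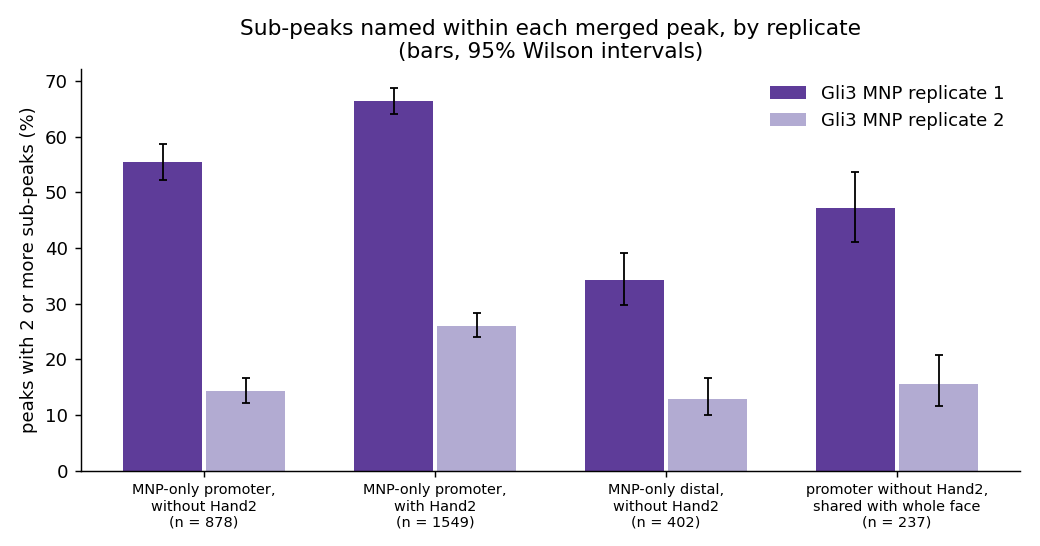
Share of merged Gli3 MNP peaks that name 2 or more sub-peaks (y axis, percent) in 4 classes of peak (x axis), with 1 bar for each replicate and 95% Wilson intervals that cover counting error only. In the MNP-only promoter peaks without Hand2 the share is 55.5% in replicate 1 and 14.2% in replicate 2.

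Motifs were counted as exact letters on either strand within the middle 200 bp, so that wider peaks had no more room. The cGBM, GACCACCC, was in 11 of 878 peaks (1.25%, 95% Wilson interval 0.701 to 2.23%). In the promoter peaks without Hand2 that the whole face shared it was in 28 of 237 (11.8%), 10.6 percentage points more (Fisher's exact test, adjusted exact p = 1.54e-10 over 45 tests). Among peaks of 577 bp or more, the median width of all Gli3 MNP peaks, the shares were 0.846 and 5.69%, and the difference of -4.85 points still passed (adjusted exact p = 0.0397). In the MNP-only promoter peaks with Hand2 it was in 15 of 1549 (0.968%), and the difference of 0.284 points had a 95% interval of -0.598 to 1.17 (adjusted exact p = 0.875). In the distal peaks without Hand2 it was in 2.74%, and that difference did not pass the test (adjusted exact p = 0.247). By comparison, 0.738% of all 21951 promoters held a GACCACCC between 250 bp before and 50 bp after the gene start. In windows of 200 bp centred 254 bp downstream of the start the share was 0.61%.

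The dGBM was likewise rarer than in the peaks shared with the whole face. GACCTCCC was in 16 of 878 peaks (1.82%), in 8.44% of those shared with the whole face (adjusted exact p = 5.3e-05) and in 1.23% of those with Hand2 (adjusted exact p = 0.683). In the distal peaks it was in 1.24% (adjusted exact p = 0.929). In peaks of 577 bp or more the difference from the whole face class was -3.82 points and did not pass the test (adjusted exact p = 0.0824). The core CCTCC, which GACCTCCC contains, was in 77.1% of the peaks, 76.7% of those with Hand2 and 75.1% of those shared with the whole face. It was in 53.0% of the distal peaks (adjusted exact p = 6.31e-16). Over all genes it was in 75.2% of the longer windows from 250 bp before to 50 bp after the start. In windows of 200 bp centred 254 bp downstream of the start it was in 63.1%.

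The E-boxes did not separate peaks with and without a Hand2 peak in this window. CAGATG was in 43 of 878 peaks (4.9%), 5.75% of those with Hand2, 5.49% of those shared with the whole face and 5.47% of the distal peaks. The difference from the class with Hand2 was -0.848 points, with a 95% interval of -2.69 to 0.991 (adjusted exact p = 0.824). Counted over the whole peak, where the peaks with Hand2 are wider, CAGATG was in 17.2% without Hand2 and 24.5% with it (adjusted exact p = 0.000135). CANNTG, which includes CAGATG and CACGTG, was in 35.6% of the peaks and 37.0% of those with Hand2. In the 300 bp promoters of all genes, a longer window, CAGATG was in 15.2% and CANNTG in 70.0%. In the 200 bp windows centred 254 bp downstream of all gene starts they were in 10.1 and 53.6%.

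Of the 15 motifs listed, none passed against the peaks with Hand2 (two-sided Fisher's exact tests, p adjusted after Benjamini and Hochberg), 4 passed against the distal peaks and 3 against the peaks shared with the whole face. CCAAT, the NF-Y motif, was in 7.97% of the peaks and 15.2% of those shared with the whole face (adjusted exact p = 0.0104). CCCGCCC, the Sp and Klf motif, was in 27.7% of the peaks and 11.7% of the distal ones (adjusted exact p = 9.3e-10). TATAAA was in 1.25% of the peaks and 4.23% of the distal ones (adjusted exact p = 0.0104). ATGGCGGC, a form of the YY1 motif found near gene starts, was in 5.01% of the peaks and 4.0% of those with Hand2, and no difference in it passed.

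**Figure D3:**
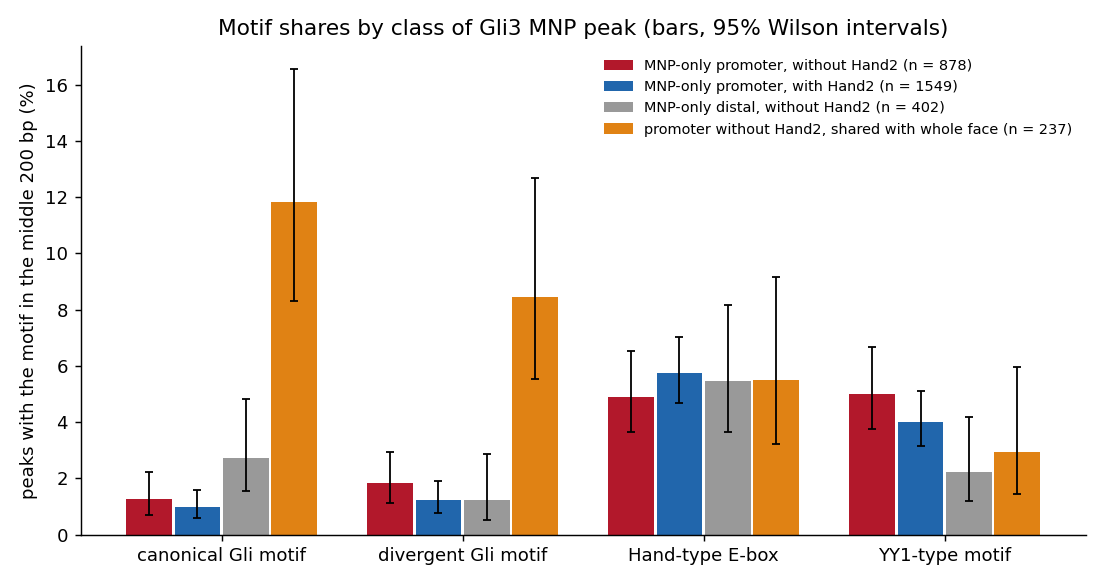
Share of peaks that hold a motif in the middle 200 bp (y axis, percent) for 4 motifs (x axis) and 4 classes of Gli3 MNP peak (bars, with 95% Wilson intervals). The canonical Gli motif is in 1.25% of the MNP-only promoter peaks without Hand2 and 11.8% of the promoter peaks shared with the whole face, while the Hand-type E-box lies between 4.9 and 5.75% in every class.

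**Figure D4:**
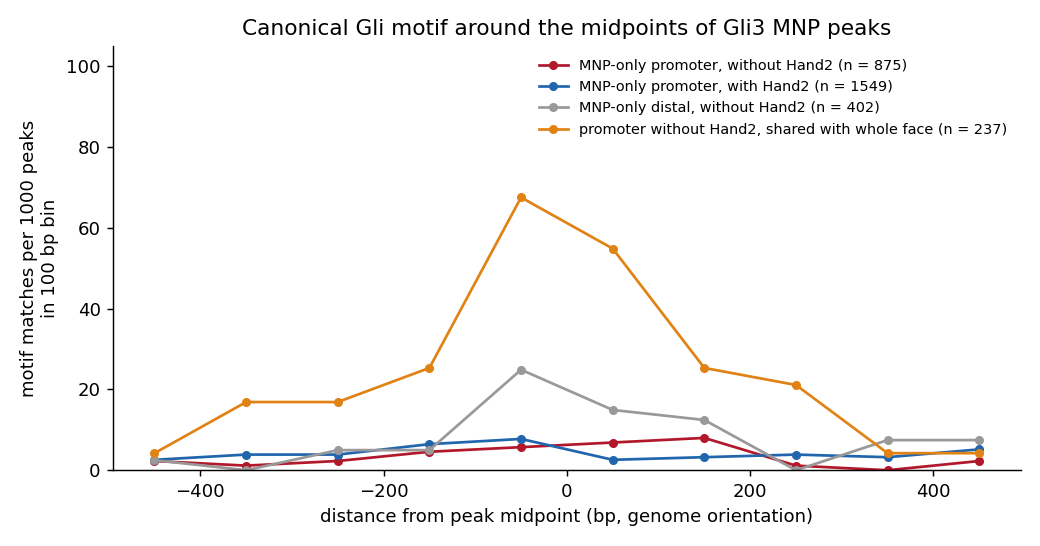
Matches to the canonical Gli motif per 1000 peaks (y axis) in 100 bp bins around the peak midpoint (x axis, bp) in 4 classes of Gli3 MNP peak, chromosome M left out. The promoter peaks shared with the whole face reach 67.5 per 1000 peaks in the bin before the midpoint, and the MNP-only promoter peaks without Hand2 stay at or below 8 per 1000 in every bin.

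Over whole peaks, 27 of the 878 (3.08%) held a cGBM and 35 (3.99%) a dGBM, compared with 22.4% and 13.1% of the peaks shared with the whole face. In the profile of the cGBM around the midpoint, the peaks had 5.71 and 6.86 matches per 1000 in the bins on either side of it, and the peaks shared with the whole face had 67.5 and 54.9. Beyond 300 bp from the midpoint the former had at most 2.29 per 1000 peaks and bin.

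Every 8-mer was also tested, without a choice of motif. The numbers that passed depend on the size of each class and on how many 8-mers were tested, so they do not rank the classes. Against the peaks with Hand2, 0 of 12369 8-mers passed (0%, and 0% in either direction), 608 had an unadjusted p below 0.05 (4.92%), and the smallest adjusted p was 0.165. Against the peaks shared with the whole face, 9 of 6014 passed (0.15%), of which 8 (0.133%) were rarer and 1 (0.0166%) was more common in the MNP-only peaks without Hand2. The rarer ones were led by GACCACCC and included CCACCCAC (2.05 and 11.8%), GGACCACC (1.37 and 9.28%) and GACCTCCC, and several of them overlap GACCACCC. The more common one was CCGCGGCC, present in 131 of 878 peaks (14.9%) and 5.06% of those shared with the whole face (adjusted exact p = 0.0125).

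Against the distal peaks without Hand2, 624 of 6980 8-mers passed (8.94%), 331 more common (4.74%) and 293 rarer (4.2%) in the promoter peaks. The 5 8-mers with the largest differences were rarer at promoters and resembled pieces of 1 longer sequence, the binding site of the neuronal repressor REST. GCTGTCCA was in 9 promoter peaks (1.03%) and 16.7% of the distal ones (adjusted exact p = 1.92e-22), GGTGCTGA in 1.94 and 16.9%, and ATGGACAG in 0.228 and 11.9%. The 8-mers found more often at promoters were GC-rich, such as CCGCCGCC (18.7 and 7.46%), the most frequent of all in the MNP-only promoter peaks without Hand2. GACCACCC stood at rank 3805 by the number of these peaks that held it.

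The sequence downstream of the start was compared between genes with and without such a peak, in a test added after the data were seen. Windows of 200 bp were centred 254 bp downstream of the gene start, and those that were CpG-island-like were kept (850 genes with a peak and 6989 with no Gli3 MNP peak at the promoter). Of 24937 8-mers, 18 differed in share (0.0722%), 17 more common (0.0682%) and 1 less common (0.00401%) at genes with a peak. GCCGCGGC was in 11.1% of the windows with a peak and 5.17% of those without (adjusted exact p = 6.5e-06), and CCGCGGCC in 16.5 and 9.76% (adjusted exact p = 0.000102). ATGGCGGC was in 5.41 and 2.48% (adjusted exact p = 0.0147), and the only rarer 8-mer was AGCAGCTG (0.588 and 3.31%), which contains an E-box. Of the 15 motifs, CANNTG had the largest difference and was rarer at genes with a peak (33.8 and 44.7%, 42.3% of all such windows, adjusted exact p = 1.62e-08), while CAGATG was in 4.12 and 5.79% (adjusted exact p = 0.13). The cGBM was in 0.941% of these windows at genes with a peak and 0.601% at genes without, a difference that did not pass (adjusted exact p = 0.34 over the 15 motifs).

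Around the start itself the promoters of the genes with a peak were mostly CpG-island-like. Over 250 bp before to 50 bp after the start, 804 of 1002 (80.2%) qualified, compared with 34.6% of genes with no Gli3 MNP peak and 41.3% of all genes. Most genes of the other classes qualified too. They were 1354 of the 1726 with an MNP-only promoter peak with Hand2, and 208 of the 271 with one without Hand2 shared with the whole face. CCGGAAGT, the ETS motif, was in 10.3% of them and 4.01% of the genes without a peak (4.69% of all promoters), CCCGCCC in 48.4 and 28.0% (31.5% of all), and ATGGCGGC in 7.29 and 1.99% (2.55% of all), and each of these differences passed (adjusted exact p = 5.65e-16, 3.91e-39 and 2.42e-18). TATAAA was in 6.19 and 13.6% (12.6% of all, adjusted exact p = 5.61e-13). The E-boxes were rarer at genes with a peak too, CANNTG at 55.8 and 72.3% (70.0% of all, adjusted exact p = 2.27e-26) and CAGATG at 8.88 and 16.2% (15.2% of all, adjusted exact p = 1.1e-10). GACCACCC was in 0.699 and 0.587% (adjusted exact p = 0.669). Genes that share a promoter enter these counts separately, and none of these motif comparisons was restricted to CpG-island-like promoters. Nor was any made against genes with another class of Gli3 promoter peak. In the CpG-island-like downstream windows above, CCGGAAGT (2 and 1.62%, adjusted exact p = 0.454) and CCCGCCC (29.6 and 26.3%, adjusted exact p = 0.13) did not pass. TATAAA (1.18 and 0.93%, adjusted exact p = 0.488) did not pass there either, while ATGGCGGC and CANNTG did.

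Of the gene lists examined, that of cytosolic ribosomal proteins had the highest share of genes with such a peak. Among all protein-coding genes 4.56% had an MNP-only peak without Hand2 within 1 kb of the start, and among those with a CpG-island-like promoter 8.88%. Any Gli3 MNP peak was there at 15.4% of all genes and 29.2% of those with a CpG-island-like promoter. Of 86 genes of cytosolic ribosomal proteins, 27 had such a peak (31.4%, 95% Wilson interval 22.6 to 41.8%), and 45 (52.3%) had any Gli3 MNP peak. An MNP-only peak with Hand2 was at 14 of the 86 (16.3%), at 7.86% of all genes and at 14.9% of those with a CpG-island-like promoter. A peak without Hand2 that the whole face shared was at 1. Counting genes with a CpG-island-like promoter alone, 22 of 56 had an MNP-only peak without Hand2. The 28 peaks at these genes were 472 to 1083 bp wide (median 678 bp), and 27 of their midpoints lay downstream of the gene start, at a median of 303 bp. Their GC content ran from 50.3 to 69.3%. Over whole peaks, 1 of the 28, at *Rpl8*, held a cGBM, 0 held a dGBM and 7 held a CAGATG, which was in 151 of all 878 peaks (17.2%). Ribosomal protein genes have many processed copies elsewhere in the genome, and the treatment of reads that fit several places is not stated in the sources used.

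Both ribosomal subunits were represented. Of the small subunit, the peak at *Rps7* lay at chr12:28635422-28636408, was 987 bp wide and had its midpoint 38 bp downstream of the start in a UTR. The peak at *Rps12* (chr10:23786901-23787421) was 521 bp wide with its midpoint 114 bp downstream. Of the large subunit, the peak at *Rpl4* (chr9:64173215-64173809) was 595 bp wide and centred in an intron 137 bp downstream. At *Rplp1*, a gene of the ribosomal stalk, a peak of 590 bp (chr9:61914030-61914619) was centred 217 bp downstream. None of these example peaks held a cGBM, dGBM or CAGATG, although 7 of the 28 ribosomal peaks held a CAGATG. The Hand2 peaks nearest to the examples lay 9332 to 46001 bp away.

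Other lists of broadly used genes had shares between that of ribosomal proteins and that of all genes. Of the proteasome, the protease of ubiquitin-tagged proteins, 6 of 39 genes had such a peak (15.4%), all centred 161 to 331 bp downstream of the start, among them *Psma1*, *Psmd3* and *Psmd6*. Of translation factors, 9 of 69 had one (13.0%), with *Eif3e* and *Eif3f* of the initiation factor that binds the small subunit and *Eif4e2*, a cap-binding protein. The cell cycle list had 7 of 54 (13.0%), which included the replication genes *Cdc45*, *Prim1*, *Orc2* and *Orc6*, the kinase genes *Cdk2* and *Aurka*, and *Rbl1* of the retinoblastoma family. Splicing had 7 of 59 (11.9%), including *Sf3b3*, *Prpf3* and *Snrpb*. Mitochondrial ribosomal proteins had 8 of 77 (10.4%) and the respiratory chain 9 of 95 (9.47%). Counting genes with a CpG-island-like promoter alone, the proteasome had 2 of 25, translation factors 8 of 49 and the cell cycle list 4 of 39. Splicing then had 6 of 49, mitochondrial ribosomal proteins 6 of 55 and the respiratory chain 9 of 57. These shares are descriptions, not tests, since the peaks were chosen from the same readout, and apart from the ribosome each interval reached down to the share of CpG-island-like promoters (8.88%).

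**Figure D5:**
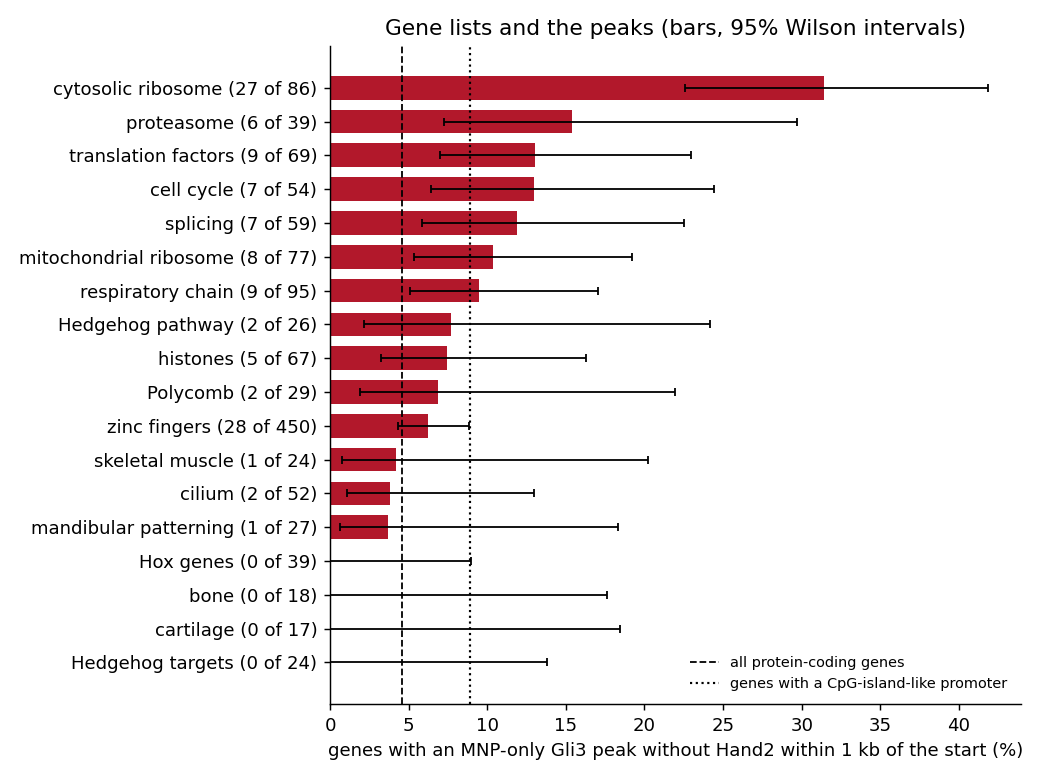
Share of the genes of each list that had an MNP-only Gli3 peak without Hand2 within 1 kb of the start (x axis, percent, bars with 95% Wilson intervals), with the number of genes beside each list. The dashed line marks all protein-coding genes (4.56%) and the dotted line those with a CpG-island-like promoter (8.88%), and cytosolic ribosomal proteins stand highest at 31.4%.

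Zinc finger genes had a share near the background, 28 of 450 (6.22%). The 29 peaks at them had widths of 214 to 1002 bp, and 3 held a cGBM, 3 a dGBM and 5 a CAGATG. *Zfp445* had a peak of 360 bp (chr9:122865695-122866054) with a dGBM in its middle. Histone genes had 5 of 67 (7.46%), served by 3 peaks, while 57 of the 67 (85.1%) had an MNP-only peak with Hand2, compared with 7.86% of all genes. The 3 histone peaks lay only 18 to 119 bp from a Hand2 peak, at *Hist2h2be*, *Hist1h2bf* and *Hist1h2bm*, and no cGBM was in them.

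Genes of the Hedgehog pathway and of mandibular patterning had shares near the background of 4.56% of all genes and 8.88% of those with a CpG-island-like promoter. Of 26 pathway genes, 2 had such a peak (7.69%), while 6 (23.1%) had an MNP-only promoter peak with Hand2 and 12 (46.2%) had any Gli3 MNP peak at the promoter. The share with an MNP-only promoter peak with Hand2 was 7.86% of all genes and 14.9% of those with a CpG-island-like promoter. For any Gli3 MNP peak at the promoter these shares were 15.4 and 29.2%. *Boc*, which encodes a Hedgehog coreceptor, had a peak of 937 bp (chr16:44557943-44558879) centred 486 bp downstream in an intron, and the nearest Hand2 peak lay 6513 bp away. *Evc*, a gene for a protein at the base of the primary cilium that passes on the signal of Smoothened, had a peak of 645 bp (chr5:37336447-37337091) centred 125 bp downstream, with a Hand2 peak 1068 bp and a whole face Gli3 peak 1334 bp away. Neither peak held a cGBM, a dGBM or CAGATG. Of 24 Hedgehog target genes, 0 had such a peak (upper limit of the 95% interval 13.8%), and 6 (25%) had another Gli3 MNP peak at the promoter, a share between those 2 backgrounds. The 10 genes that the study names beside its binding data, *Ptch1*, *Gli1*, *Gli2*, *Gli3*, *Shh*, *Hand2*, *Foxd1*, *Plagl1*, *Myh6* and *Maf*, had none. The nearest Gli3 MNP peak to the start of *Ptch1* (381 bp) overlapped both Hand2 and whole face peaks, and those of *Gli2* (522 bp) and *Gli3* (723 bp) overlapped Hand2 peaks. For *Foxd1* and *Maf* the nearest lay 11878 and 1092334 bp away. The study reports regions bound by Gli3 and Hand2 at both loci, and it drew candidate regulatory regions from calls on pooled replicates. Those calls were not used here.

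Among 27 mandibular patterning genes, *Pitx1* alone had such a peak (3.7%). It was 491 bp wide (chr13:55835599-55836089), named 1 sub-peak from each replicate, and lay 4104 bp from the nearest Hand2 peak and 200554 bp from the nearest Gli3 peak of the whole face. *Mef2a*, the only gene with such a peak of 24 on the skeletal muscle list, had a peak of 980 bp (chr7:67372543-67373522) centred 175 bp upstream of its start, with 3 sub-peaks from replicate 1 and 1 from replicate 2. On the Polycomb list of 29 genes, *Rybp*, a subunit of the variant repressive complex, had a pair of these peaks, 545 and 334 bp wide, the wider holding a CAGATG in its middle 200 bp and a cGBM outside it. *Rbbp7* had 1 of 864 bp. Of 52 cilium genes, *Tctn1* of the transition zone and *Ift140* of intraflagellar transport had one (3.85%). Lists of cartilage (17 genes), bone (18), neurons (16), epithelium (14), blood and endothelium (15), liver (13), Hox genes (39) and olfactory receptors (1135) had 0. Of these, cartilage and bone each had 2 genes (11.8 and 11.1%), and neurons 1 (6.25%), with another Gli3 MNP promoter peak. Any such promoter peak was at 15.4% of all genes. For every one of these lists except olfactory receptors the 95% interval reached above the share of all genes.

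Some genes were nearest to more than 1 such peak, 21 in all. At *Actg1*, the gene of cytoplasmic gamma actin, peaks of 1316 and 1036 bp were centred 777 bp upstream and 499 bp downstream of the start. *Map4k4*, *Smc3*, *Ddx6*, *Rbm15*, *Phf2*, *Calu* and *Ubb* likewise had 1 peak on each side of the start. At *Memo1*, peaks of 799 and 279 bp were both downstream, at 839 and 110 bp. The gap between such neighbours was small, as at *Zfp91*, where 1 peak ended at 12795816 and the next began at 12795836 of chromosome 19.

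Some of the peaks lay close to the limits of the choice. The midpoints nearest to 1 kb were at *Scyl3* (998 bp downstream), *Sema3f* (989 bp) and *Pus3* (982 bp), and the first peaks outside were at *Creb1* (1001 bp) and *Ppia* (1022 bp). The smallest gaps to a Hand2 peak were 2 bp at *E2f8*, an atypical E2F repressor gene, 4 bp at *Gtpbp1* and 12 bp at *Khdrbs1*. On the other side, the peaks at *Nt5dc3*, *Cdkn2aip* and *Setmar* overlapped a Hand2 peak by 2, 5 and 6 bp and were left out. A Hand2 peak lay within 1 kb of 139 of the peaks and within 100 bp of 46, and the median gap was 16850 bp. A whole face Gli3 peak lay within 1 kb of 28, nearest at *Fgfr2* (73 bp) and *Uxs1* (86 bp), and the median gap was 114508 bp. With the 139 left out, 739 peaks remained, of which 1.35% held a cGBM in the middle 200 bp.

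Repeated or non-nuclear sequence held some of the peaks. In 240 of the 878 (27.3%) the middle 200 bp held sequence marked as repeat in the genome. That share was 34.9% in the peaks with Hand2, 39.7% in those shared with the whole face and 57.0% in the distal ones. On chromosome M, 3 peaks of 3224 to 6844 bp covered most of the mitochondrial genome and were assigned to *mt-Nd2*, *mt-Co3* and *mt-Nd6*, and each named between 6 and 18 sub-peaks in a replicate. At the start of chromosome 9, 6 peaks lay at the predicted genes *Gm10715*, *Gm10721* and *Gm11168*, all below 3.1 Mb. Leaving out these 9 gave 869 peaks, with a cGBM in 1.27%. The 869 still held a peak at the predicted gene *Gm21738* (chr14:19419199-19419477), whose middle 200 bp was marked as repeat throughout.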

How the data were processed

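Peaks came from FLAG ChIP-seq on 6 samples in 3 groups. The authors sequenced 1 × 75 bp reads, mapped them to mm10 and deposited peak positions merged over both replicates of a group. BWA, HOMER and bedtools are listed in the submitters' processing notes with no version, the supplementary material names MACS for calls on pooled replicates, and no source used here names the caller of the whole face list. The deposited tables hold positions and peak names only, with no signal, and starts were read as counted from 0, with 1 added for printing.

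Sequences and genes were taken from GRCm38 and GENCODE vM21 with Python 3.11.15, pysam 0.24.0 and pandas 2.3.3. Motifs and 8-mers (present in at least 10 peaks of the compared classes) were counted on both strands in the middle 200 bp, and shares were compared by Fisher's exact test (scipy 1.17.1), two-sided, adjusted by the Benjamini-Hochberg procedure at a threshold of 0.05 over 45 motif tests, over all 8-mers of a comparison, or over 4 class tests. The planned test of peaks that cover a gene start was not made, because width comes from the readout that chose the peaks, and the test of the side of the start took its place. Named genes were those nearest to a peak from the smaller lists, the 4 nearest of each larger list, the extremes of width, distance and gap, genes with several peaks and genes the study names. Of the 8-mers, those with the largest differences were named. Some genes of the lists were named for their function after their presence was seen. The peaks, the lists and the motifs were chosen with earlier results of these data known. Wilson intervals (95%) cover counting error only, and depth is unknown. The counting programs were tested on simulated data. Alternatives covered the overlap with Hand2, the distance to the gene, the window, the minimum for 8-mers, repeats and peak width.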

Additional observations from a re-analysis of the deposited data

How the results depend on the processing

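No paired analysis was possible because each list holds both replicates merged, and for the same reason no replicate could be left out. Of 111 alternative values for 24 results, 79 kept their direction and side of the threshold or stayed near the reported value. Counting a Hand2 overlap from 50% of the peak gave 1451 peaks, and asking that the peak cover the gene start gave 475. Over whole peaks, the difference (percentage points) from the class with Hand2 was -1.12 for GACCACCC, -1.31 for GACCTCCC and -7.33 for CAGATG, of which the last passed, and from the distal class 3.02 for CAGATG. Among peaks of median width or more it was -0.082 for GACCACCC and 0.925 for CpG-island-like peaks against the class with Hand2. In the same peaks it was -1.2 for GACCTCCC and 3.36 for CAGATG against the distal class, and -3.82 for GACCTCCC, which no longer passed, and 2.42 for CAGATG against the class shared with the whole face. CAGATG differed by 0.0373 from the class with Hand2 in the middle 100 bp. With no Hand2 peak within 1 kb it differed by 0.583 from the distal class and 0.642 from the whole face class, and without repeats by 0.434 from the latter. Within 500 bp of the start, CpG-island-like peaks differed by 0.279 from the class with Hand2, and the share covering the start by -17.4 from the whole face class. None of the reversed differences passed in either setting. The 8-mers that differed numbered 260 (with Hand2), 1561 (distal) and 15 (whole face) over whole peaks, 224 (distal) and 4 (whole face) in the middle 100 bp, and 407 (distal) with no minimum. GACCACCC in promoters differed by -0.0326 points among CpG-island-like ones and -0.00271 with 1 gene per pair of starts. Counting any Gli3 MNP peak, the share was 15.4% of all protein-coding genes and 29.2% of those with a CpG-island-like promoter. On that count, list shares were 52.3% (cytosolic ribosome), 25.6% (zinc fingers), 33.3% (cell cycle), 35.9% (proteasome), 46.2% (Hedgehog pathway) and 41.4% (Polycomb). Whole peaks hold more sequence in wider classes and a shorter window holds less, by construction; for the other changes the cause was not tested.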

Other observations

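Grouped by the letters that open their symbols, and chosen after the values were seen, other gene families differed in their share of genes with an MNP-only promoter peak without Hand2. The share was 4.56% of all protein-coding genes and 8.88% of those with a CpG-island-like promoter, and families with fewer than 4 such genes were not listed. Nucleoporins, the proteins of the nuclear pore, had 6 of 21 symbols that start with Nup (28.6%), namely *Nup50*, *Nup54*, *Nup62*, *Nup98*, *Nup205* and *Nup214*. General transcription factors had 5 of 23 starting with Gtf (21.7%), among them *Gtf2b* and *Gtf2e1*. Vacuolar sorting genes had 7 of 35 starting with Vps (20%), RNA-binding motif genes 7 of 39 starting with Rbm (17.9%), and genes of RING finger proteins 12 of 85 starting with Rnf (14.1%). Transport proteins of the solute carrier families, starting with Slc, had 10 of 371 (2.7%), symbols starting with Ccdc 5 of 139 (3.6%), Atp 4 of 86 (4.65%), Fam 10 of 204 (4.9%) and Ppp 4 of 75 (5.33%). Symbols are an imperfect guide to function, and these shares were not tested.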
